A study of Homo sapiens with 8 samples.

Results

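The 10 genes described here encode chaperones and AAA+ proteases of the human mitochondrion, namely HSPD1, HSPE1, HSPA9, TRAP1, GRPEL1, LONP1, CLPX, CLPB, AFG3L2 and YME1L1. They were chosen by what their products are, as nuclear genes whose proteins are made in the cytosol and then imported, and by their presence in both count tables. All 10 were found among the 60664 gene identifiers of the tables before any filter on counts. In the tables and in GENCODE 44 (hg38) they are HSPD1 (ENSG00000144381, chr2:197486584-197516737), HSPE1 (ENSG00000115541, chr2:197500140-197503449), HSPA9 (ENSG00000113013, chr5:138553756-138575675), TRAP1 (ENSG00000126602, chr16:3651639-3717553), GRPEL1 (ENSG00000109519, chr4:7058671-7068085), LONP1 (ENSG00000196365, chr19:5691834-5720572), CLPX (ENSG00000166855, chr15:65148219-65185342), CLPB (ENSG00000162129, chr11:72285495-72434680), AFG3L2 (ENSG00000141385, chr18:12328944-12377227) and YME1L1 (ENSG00000136758, chr10:27110111-27155266), of which HSPE1 lies on the plus strand and the others on the minus strand. Each pulldown was set against the input of its own cell line.

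In selective ribosome profiling, ribosomes that carry a chaperone on their nascent chain are isolated through a tag, and the stretches of mRNA they shield from nuclease (ribosome-protected fragments, RPFs) are sequenced next to those of the whole ribosome pool. The libraries came from U-2 OS, a human osteosarcoma line. All cells received cycloheximide, which halts elongation, at 100 µg per ml for 1 min, followed by 2 mM of the crosslinker DSP for 30 min. In the TRiC line a HaloTag had been knocked into a loop of CCT4, a subunit of the cytosolic chaperonin TRiC, and in the PFD line the tag was placed at the C terminus of endogenous PFD4 (PFDN4), a subunit of its co-chaperone prefoldin. The TRiC line is a single clone, so that a property of the clone and one of the tag cannot be told apart. The paper states that the PFD line was made with the same strategy, so the same limit can apply to it. Input and pulldown of either line had 2 biological replicates each, which gives 8 libraries. No untagged line was among the samples used here, so material held by the beads without a chaperone was not measured.

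Most mitochondrial proteins are synthesized on cytosolic ribosomes with a positively charged, arginine-rich presequence at the N terminus, and cross the membranes unfolded through the TOM and TIM23 translocases. In the matrix, mitochondrial Hsp70 (HSPA9, mortalin) draws the chain inwards, and the chaperonin Hsp60 (HSPD1) with its lid Hsp10 (HSPE1) encloses and folds part of the imported proteins. Hsp60 is the organelle's own chaperonin and a distant relative of the TRiC subunits. The AAA+ proteases LONP1, ClpXP, AFG3L2 and YME1L1 unfold and degrade damaged or surplus proteins. Before import, each of the 10 precursors exists as a nascent chain in the cytosol, where TRiC and PFD work.

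The first 30 codons of 6 members are shown because they encode the start of the chain that leaves the ribosome first, and because these members carry the results or stand at the ends of the range. They were read from hg38 with the Ensembl canonical transcripts of GENCODE 44, all from the minus strand, and capitals mark the arginine codons. The stretches lie at chr2:197498759-197498848 for HSPD1, chr5:138574118-138575318 for HSPA9, chr16:3690984-3717508 for TRAP1, chr19:5720043-5720132 for LONP1, chr11:72434385-72434474 for CLPB and chr10:27148984-27154210 for YME1L1. Those of HSPA9, TRAP1 and YME1L1 are spliced over introns, and all bases shown are exonic and coding.
HSPD1: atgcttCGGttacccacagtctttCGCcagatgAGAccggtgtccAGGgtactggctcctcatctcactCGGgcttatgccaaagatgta
HSPA9: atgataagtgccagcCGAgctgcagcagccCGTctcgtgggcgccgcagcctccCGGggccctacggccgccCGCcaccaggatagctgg
TRAP1: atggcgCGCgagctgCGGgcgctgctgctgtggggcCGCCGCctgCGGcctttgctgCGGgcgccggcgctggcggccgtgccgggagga
LONP1: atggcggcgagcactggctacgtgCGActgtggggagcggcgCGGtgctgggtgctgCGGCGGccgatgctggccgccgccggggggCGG
CLPB: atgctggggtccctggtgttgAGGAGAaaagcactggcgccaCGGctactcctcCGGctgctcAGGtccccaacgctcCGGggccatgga
YME1L1: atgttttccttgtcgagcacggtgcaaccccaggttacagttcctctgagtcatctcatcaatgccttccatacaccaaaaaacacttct

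Among the 29 codons after the start codon, TRAP1 and CLPB had 6 arginine codons each, a number reached by 3.26% of 19794 genes. HSPD1, GRPEL1 and LONP1 had 5, HSPA9 and AFG3L2 had 4, HSPE1 had 3, CLPX had 2 and YME1L1 had 0, against a median of 2 over all genes. Codons for aspartate or glutamate were rare in the same stretch. There were none in 6 members and at most 1 in 9, as in 12.7% and 29.6% of all genes, and HSPE1 with 3 stood at the median of all genes. Hsp10 is known to keep its N terminus after import, whereas most presequences are cut off.

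HSPE1 was the member with the least sequence of its own. Of its 278 coding windows of 29 bases, about the size of a footprint, 245 (88.1%) had an exact match elsewhere in hg38, and GENCODE 44 names 26 HSPE1 pseudogenes. In addition 168 of its 306 coding bases (54.9%) lie under exons of HSPE1-MOB4, a read-through gene on the same strand. The first 300 coding bases are shown for this reason, spliced from chr2:197500437-197503250 on the plus strand of hg38, with the bases under HSPE1-MOB4 in capitals.
HSPE1: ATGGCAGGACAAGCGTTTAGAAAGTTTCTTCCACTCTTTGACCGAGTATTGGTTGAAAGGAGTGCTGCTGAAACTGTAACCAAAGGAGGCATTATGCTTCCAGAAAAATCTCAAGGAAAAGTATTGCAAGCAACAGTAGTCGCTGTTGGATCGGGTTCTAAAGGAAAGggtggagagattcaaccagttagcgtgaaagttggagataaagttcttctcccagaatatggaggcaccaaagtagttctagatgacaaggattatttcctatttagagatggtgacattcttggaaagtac

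STAR's gene counting discards a read that falls on exons of several genes, and the authors kept unique alignments only. HSPE1-MOB4 is listed at 0 counts in all 8 libraries. Only 2 of the HSPE1 windows (0.719%) had neither a match elsewhere nor a base under that gene, and in a gene total these cannot be told apart from counts on the ends of the transcript outside the coding sequence. For HSPD1, 1199 of 1691 windows (70.9%) matched elsewhere, where 18 pseudogenes are named. HSPA9 followed with 27.1%, AFG3L2 with 15.6% and YME1L1 with 2.12%, whereas TRAP1, GRPEL1, LONP1, CLPX and CLPB had no such window. Summed over the named pseudogenes, the counts came to between 1.12% and 3.55% of the member's own count for HSPD1, 4.92% and 30.8% for HSPE1, and 0.310% and 1.31% for HSPA9, depending on the library. On the opposite strand, exons of DNASE1 cover 36.5% of the TRAP1 coding sequence, exons of TUBB6 cover 13.9% of that of AFG3L2, and a gene listed by identifier only covers 2.22% of that of CLPB. Which strand column was deposited is not stated in the sources used here.

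**Figure D1:**
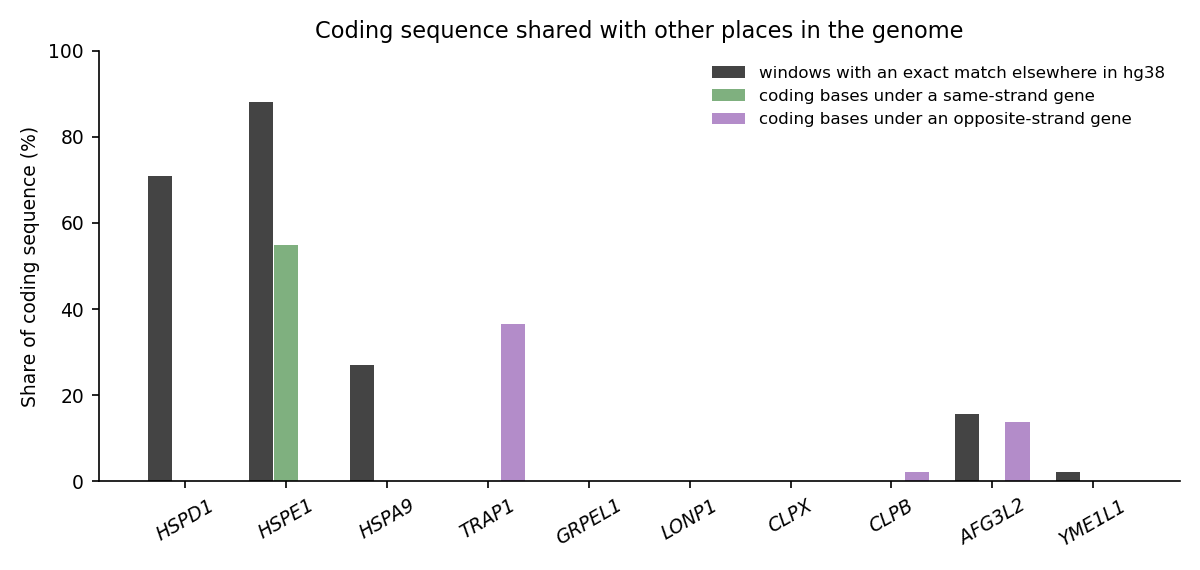
Bars give, for each member, the percentage of 29-base coding windows with an exact match elsewhere in hg38 and the percentages of coding bases under exons of another gene on the same or on the opposite strand. HSPE1 (88.1%) and HSPD1 (70.9%) have the most matching windows, HSPE1 is the member with bases under a same-strand gene (54.9%), and TRAP1 has the largest share under an opposite-strand gene (36.5%).

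The libraries held between 9523128 and 32637658 counts. Log2 CPM of both replicates correlated at 0.982 in the TRiC inputs, 0.976 in the TRiC pulldowns, 0.935 in the PFD inputs and 0.872 in the PFD pulldowns, with common dispersions of 0.0153 (TRiC) and 0.331 (PFD). The lineage markers VIM, COL1A1 and SPARC were abundant in every library and RUNX2 had 613 to 1920 counts, whereas COL1A2 had 1 to 66. Among markers of other cell types, PTPRC and ALB had at most 6 counts, and EPCAM had 1 to 277. ALPL, an alkaline phosphatase also made by bone-forming cells, had 62 to 95 counts in the TRiC and 358 to 811 in the PFD libraries. Counts are given below as CPM, counts per 1000000 counts of the library after TMM scaling, which centres most genes on no change. A fold change therefore compares a gene's share of all RPFs. Pulldown and input were compared with edgeR's quasi-likelihood test, and a gene was called at a Benjamini-Hochberg adjusted p under 0.05.

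The members spanned a wide range of footprint density in the inputs. In such bulk samples the number of cells, the mRNA per cell and its translation cannot be told apart. Per kb of coding sequence HSPA9 had the highest level in the TRiC inputs, with a mean of 288 ± 2.95 CPM per kb (SD, n = 2). It was followed by HSPD1 at 162 ± 7.47, YME1L1 at 88.0 ± 6.03, TRAP1 at 67.3 ± 0.605, CLPX at 58.5 ± 2.87, HSPE1 at 53.9 ± 1.74, AFG3L2 at 53.8 ± 0.335, GRPEL1 at 46.7 ± 2.07, CLPB at 39.1 ± 0.869 and LONP1 at 27.7 ± 0.790. In this order only HSPE1 and AFG3L2 had overlapping replicates. The level of HSPE1 per kb is counted over its whole coding sequence although little of it can receive unique counts. In an alternative chosen after the data were seen, the other 9 were set against the share of their coding windows without a match elsewhere, which is 29.1% for HSPD1 and 72.9% for HSPA9. This turned the order at the top, with 557 ± 25.7 CPM per kb for HSPD1 and 395 ± 4.04 for HSPA9, and put AFG3L2 (63.8 ± 0.397) above CLPX.

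In the PFD inputs HSPD1 (273 ± 4.60 CPM per kb) and HSPA9 (267 ± 10.4) overlapped at the top, followed by TRAP1 at 126 ± 2.67 and YME1L1 at 109 ± 8.15. GRPEL1 had 92.7 ± 1.95 CPM per kb, AFG3L2 56.4 ± 3.29, CLPX 50.2 ± 6.20, HSPE1 39.1 ± 3.99, CLPB 25.5 ± 1.09 and LONP1 21.5 ± 0.223, with AFG3L2 and CLPX overlapping. Per kb of match-free coding sequence HSPD1 had 939 ± 15.8 CPM per kb and HSPA9 366 ± 14.3, so that they no longer overlapped. The rank of LONP1, the matrix protease Lon, was the lowest in the inputs of both lines on either scale. Between the lines, whose tables were scaled separately, mean input CPM was 1.99-fold higher in the PFD line for GRPEL1, 1.87-fold for TRAP1, 1.69-fold for HSPD1, 1.23-fold for YME1L1 and 1.05-fold for AFG3L2. It was 1.54-fold higher in the TRiC line for CLPB, 1.38-fold for HSPE1, 1.29-fold for LONP1, 1.16-fold for CLPX and 1.08-fold for HSPA9. The inputs of both lines did not overlap for any of the 10 genes, with 5 higher in the PFD line, as 27.1% of all 18855 genes compared, and 5 higher in the TRiC line, as 44.8%, and line, clone and count table cannot be told apart here and no test was made.

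**Figure D2:**
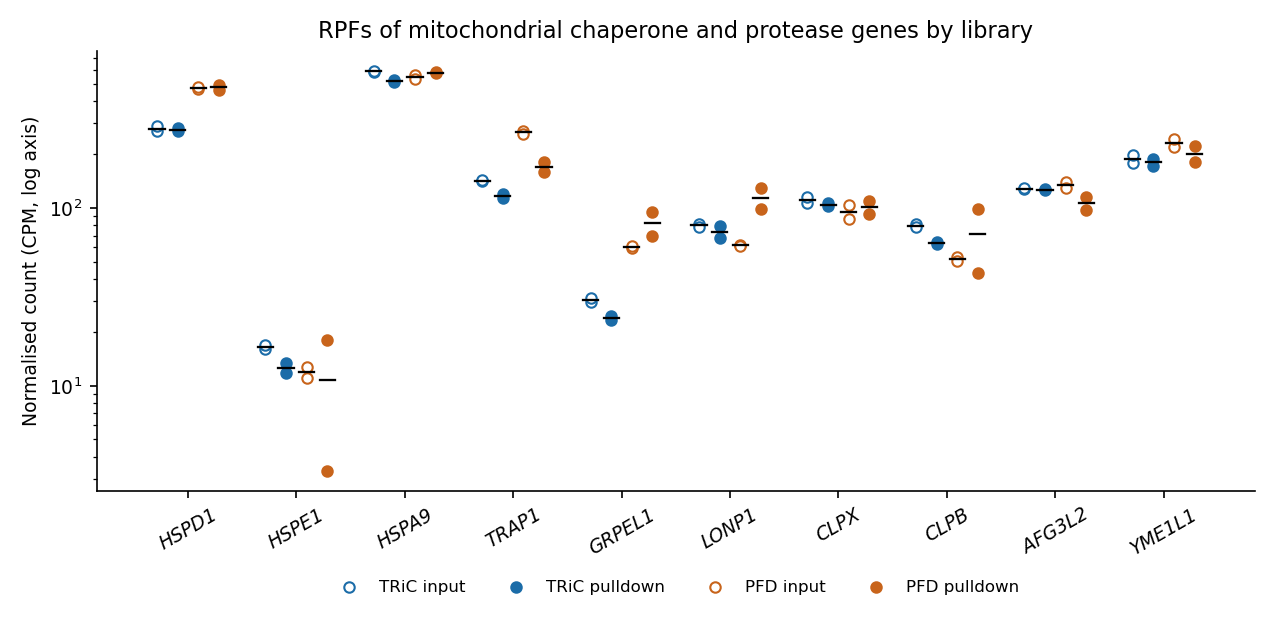
Each point is the CPM of a gene in a library on a log axis, with open circles for inputs, filled circles for pulldowns, blue for the TRiC line, orange for the PFD line, and a black bar for the mean of both replicates. HSPA9 is high in all libraries (512 to 590.5 CPM), GRPEL1, TRAP1 and HSPD1 are higher in the PFD than in the TRiC inputs, and the PFD pulldowns of HSPE1 (3.34 and 18.2) and CLPB (99.3 and 43.1) lie far apart.

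In the TRiC pulldown the share of RPFs on CLPB, a disaggregase of the intermembrane space, and on TRAP1, the mitochondrial Hsp90, was lower than in the input, 1.26-fold and 1.22-fold. No member was higher and these 2 were lower, whereas 8.64% of the 17934 genes tested were called higher and 10.6% lower. At an unadjusted p under 0.05 there were 5 members, all of them lower, against 32.5% of all genes, and DESeq2 called HSPA9 lower besides these 2 (adjusted p = 0.0455). The fold changes of all 10 members lay below 0, with a median of -0.15 on the log2 scale, while the median over all genes was 0 to 2 decimals and 50.3% of them were below 0. With library totals instead of TMM, HSPD1 and AFG3L2 turned to the positive side, and with cyclic loess YME1L1 did as well. With TMM scaling, both pulldowns lay below both inputs in 7 members, as in 31.2% of all genes, and no member had both above. On library totals CLPX and AFG3L2 were no longer among these.

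CLPB had 80.8 and 78.3 CPM in the TRiC inputs and 62.4 and 64.2 CPM in the TRiC pulldowns. The groups did not overlap, and the log2 fold change was -0.33 ± 0.09 (SE; edgeR adjusted p = 0.0156). TRAP1 had 141 and 143 CPM in the inputs and 119 and 114 CPM in the pulldowns. Here, too, both pulldowns were below both inputs, with a log2 fold change of -0.29 ± 0.08 (edgeR adjusted p = 0.0171). Both calls rested on the full set of TRiC inputs. Without TRiC input replicate 1 the adjusted p was 0.182 for CLPB and 0.142 for TRAP1, and without TRiC input replicate 2 it was 0.0838 and 0.147. They were also lost with library totals (0.0553 and 0.0803), with cyclic loess (0.0512 and 0.0864) and with all 8 libraries in one fit (1.00 and 0.510). DNASE1, whose exons lie opposite those of TRAP1, moved the other way, from 12.6 and 11.6 CPM to 19.8 and 22.2 CPM (log2 fold change 0.79, edgeR adjusted p = 0.00143), and its part in the TRAP1 values was not tested.

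None of the 4 genes of the Hsp70 and Hsp60 systems passed the test. HSPA9, the import motor and main matrix Hsp70, had 582 and 590.5 CPM in the TRiC inputs and 522 and 512 CPM in the pulldowns (log2 fold change -0.18 ± 0.06, edgeR adjusted p = 0.0584). GRPEL1, its nucleotide exchange factor, had 29.4 and 31.3 CPM against 24.8 and 23.4 CPM (-0.33 ± 0.12, edgeR adjusted p = 0.0594). In both genes the pulldowns lay below the inputs without passing the threshold. HSPE1 had 16.1 and 16.9 CPM in the inputs and 13.4 and 11.9 CPM in the pulldowns (-0.38 ± 0.15, edgeR adjusted p = 0.0953), from 299 to 511 counts. HSPD1, in contrast, had 269.6 and 288 CPM in the inputs and 269 and 283 CPM in the pulldowns (-0.01 ± 0.07, edgeR adjusted p = 0.923). Its groups overlapped, and the value was the nearest to 0 of the 10. Without TRiC pulldown replicate 1, HSPA9, GRPEL1 and HSPE1 passed as well, with adjusted p of 0.0160, 0.0281 and 0.0347, which made 5 members lower in a fit that called 13.9% of all genes lower and 10.2% higher.

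LONP1, CLPX, AFG3L2 and YME1L1 did not pass the test either. LONP1 had 81.4 and 78.2 CPM in the TRiC inputs and 79.1 and 67.8 CPM in the pulldowns (log2 fold change -0.12 ± 0.10). CLPX, which unfolds substrates for the peptidase CLPP, had 107 and 115 CPM against 103 and 106 CPM (-0.09 ± 0.08). The groups of LONP1 overlapped, and the CLPX pulldowns lay just below the inputs. On library totals the CLPX groups overlapped, with 103 and 115 CPM in the inputs and 105 and 107 CPM in the pulldowns. AFG3L2, the matrix-facing protease of the inner membrane, had 128 and 129 CPM in the inputs and 126 and 128 CPM in the pulldowns (-0.02 ± 0.08). YME1L1, which faces the intermembrane space, had 179.8 and 198 CPM against 172 and 189 CPM (-0.07 ± 0.08). The adjusted p of these 4 genes lay between 0.425 and 0.888 in edgeR's test. TUBB6, whose exons lie opposite those of AFG3L2, fell by 0.34 on the log2 scale (edgeR adjusted p = 0.00311).

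Summed over the 10 genes, the TRiC inputs held 1616 and 1668 CPM and the TRiC pulldowns 1491 and 1498 CPM, so the groups did not overlap. With library totals the sums were 1556 and 1672 CPM in the inputs and 1522 and 1512 CPM in the pulldowns. In the PFD line the sums were 1944 and 1914 CPM in the inputs and 1926 and 1894 CPM in the pulldowns, and these overlapped.

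No member was called in the PFD pulldown, where 0.0496% of the 14111 genes tested were called higher and 0.191% lower. The values ran from -0.64 for TRAP1 to 0.89 for LONP1 on the log2 scale, with 6 above and 4 below 0 and a median of 0.05. Their SE lay between 0.10 and 0.80, against 0.06 to 0.15 in the TRiC pulldown. Of the 10, 2 had an unadjusted p under 0.05, against 6.93% of all genes. Both pulldowns lay above both inputs for HSPA9, GRPEL1 and LONP1, as for 18.3% of all genes, and below them for TRAP1 and AFG3L2, as for 20.4%.

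LONP1 had 62.2 and 61.3 CPM in the PFD inputs and 129.6 and 99.1 CPM in the PFD pulldowns. Each pulldown stood well above both inputs, and the fold change was 1.85 (log2 0.89 ± 0.21, edgeR unadjusted p = 0.00286 and adjusted p = 0.400). TRAP1 had 270.0 and 262 CPM in the inputs and 159.6 and 182 CPM in the pulldowns. It was 1.56-fold lower (log2 -0.64 ± 0.13, edgeR unadjusted p = 0.00146 and adjusted p = 0.272), with no overlap between the groups. Whether these 2 genes passed depended on the setting. With DESeq2 the adjusted p was 0.000474 for LONP1 and 4.25e-06 for TRAP1, and in edgeR without a filter on low counts it was 0.00868 and 0.0115. Without PFD pulldown replicate 2 it was 0.000275 and 0.000192, and without PFD pulldown replicate 1 TRAP1 alone passed (0.00293). TRAP1 and AFG3L2 had both pulldowns below both inputs in either line. Of all genes, 31.2% did so in the TRiC and 20.4% in the PFD line, and the share in both lines was not counted. For AFG3L2 this depended on the scaling. On library totals its TRiC groups overlapped, with 123.4 and 129.5 CPM in the inputs and 128.5 and 128.9 CPM in the pulldowns.

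Among the other chaperones, GRPEL1 had 59.4 and 61.2 CPM in the PFD inputs and 94.8 and 69.3 CPM in the pulldowns (log2 fold change 0.44 ± 0.23, edgeR adjusted p = 0.783). Without PFD pulldown replicate 2 its value was 0.65 and passed (edgeR adjusted p = 0.0390), in a fit that called 7% of all genes higher and 8.76% lower. HSPA9 had 559 and 529 CPM against 581 and 573 CPM (0.08 ± 0.10), and HSPD1 464 and 475 CPM against 489 and 462 CPM (0.02 ± 0.10). The replicates of HSPA9 did not overlap between the groups, but the distance between them was small, and those of HSPD1 did overlap. HSPE1 had 11.1 and 12.8 CPM in the inputs and 3.34 and 18.2 CPM in the pulldowns, from 31 and 518 counts. The 31 counts correspond to 3.26 CPM on the library total, with a 95% Clopper-Pearson interval of 2.21 to 4.62 for counting error, and the 518 counts to 18.1 (16.6 to 19.8). Its log2 fold change was -0.14 ± 0.80 and turned to 0.60 without PFD pulldown replicate 1 and to -1.84 without PFD pulldown replicate 2, where it passed (edgeR adjusted p = 0.0469).

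CLPB had 53.3 and 50.1 CPM in the PFD inputs and 99.3 and 43.1 CPM in the pulldowns. One pulldown was above and the other below both inputs, and the log2 fold change of 0.45 ± 0.37 became -0.27 without PFD pulldown replicate 1 and 0.94 without PFD pulldown replicate 2, where it passed (edgeR adjusted p = 0.00348). AFG3L2 had 140.4 and 129 CPM in the inputs and 97.2 and 115 CPM in the pulldowns (-0.35 ± 0.17, edgeR adjusted p = 0.767). YME1L1 had 221 and 245 CPM against 180.2 and 223 CPM (-0.21 ± 0.15). CLPX had 104 and 87.1 CPM in the inputs and 92.0 and 110.1 CPM in the pulldowns (0.08 ± 0.19). The groups of YME1L1 and CLPX overlapped. AFG3L2, YME1L1 and CLPX passed the test in the PFD line under none of the alternatives run.

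**Figure D3:**
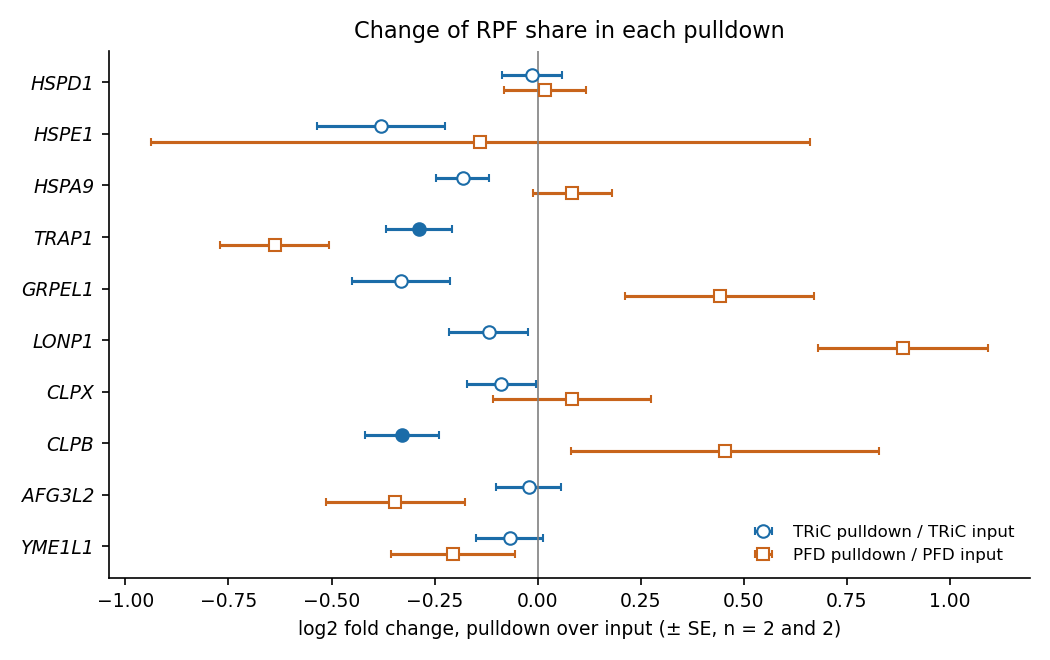
Points give the log2 fold change of pulldown over input for each member with its SE (n = 2 libraries per group), as blue circles for TRiC and orange squares for PFD, and filled symbols mark an edgeR adjusted p under 0.05. The TRiC values lie between -0.38 and -0.01 with CLPB and TRAP1 filled, and the PFD values spread from -0.64 for TRAP1 to 0.89 for LONP1 with none filled.

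The test of the difference between both fold changes, TRiC minus PFD, used all 8 libraries. Its dispersion was estimated over both lines together, with a common value of 0.223 against 0.0153 for the TRiC and 0.331 for the PFD line. The SE and p of a difference can therefore understate the noise of the PFD libraries. No member was called, where 0.0212% of 18855 genes were called higher and 0.0159% lower. LONP1 had the largest difference of the 10 at -0.99 ± 0.20 (log2; edgeR unadjusted p = 0.00118 and adjusted p = 0.155), with its share 1.09-fold lower than the input in the TRiC and 1.85-fold higher in the PFD pulldown. GRPEL1 had a difference of -0.76 ± 0.23 (edgeR adjusted p = 0.229), HSPA9 of -0.25 ± 0.11 (0.331), TRAP1 of 0.36 ± 0.15 (0.335) and CLPB of -0.75 ± 0.42 (0.437). Of the 10 members, 4 had an unadjusted p under 0.05, against 14.8% of all genes. The difference of HSPA9 passed with DESeq2 (adjusted p = 0.0289). That of LONP1 did as well (adjusted p = 0.00458), and it passed in edgeR without a filter (0.00726), without PFD pulldown replicate 1 (0.0283) and without PFD pulldown replicate 2 (0.00297). That of HSPE1 was -0.27 ± 0.92 and reached 1.52 without PFD pulldown replicate 2, so it depended on a single library. The differences of HSPD1, CLPX, AFG3L2 and YME1L1 lay between -0.16 and 0.33.

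The neighbours of these genes in the organelle were described for context by counts and medians. Of all 17934 genes tested in the TRiC pulldown, 8.64% were called higher and 10.6% lower. Of 13 other mitochondrial chaperones and co-chaperones, none was higher and 3 were lower in the TRiC pulldown, with a median of -0.17 on the log2 scale. These were STOML2 (-0.55 ± 0.09, edgeR adjusted p = 0.000490) and PHB2 (-0.44 ± 0.07, edgeR adjusted p = 0.000541), scaffolds of the inner membrane, and DNAJC19 (-0.51 ± 0.13, edgeR adjusted p = 0.0120), a J-domain protein linked to the import motor. Of 12 other proteases and processing peptidases 1 was higher and 2 were lower, with a median of -0.02, which became 0.03 with library totals. The higher one was SPG7, which assembles with AFG3L2 in the m-AAA protease, at 111 and 105 CPM in the inputs and 146 and 144 CPM in the pulldowns (0.42 ± 0.08, edgeR adjusted p = 0.00171). CLPP, the peptidase that CLPX feeds, was lower at 47.5 and 45.9 CPM against 33.8 and 24.1 CPM (-0.68 ± 0.13, edgeR adjusted p = 0.00187), as was HTRA2 (-0.58 ± 0.15, edgeR adjusted p = 0.0107). Without TRiC pulldown replicate 1 more genes of both lists were called, as over all genes, with medians of -0.24 and -0.05. Without TRiC pulldown replicate 2 fewer proteases were called, as over all genes, and the medians were -0.13 and 0.02. The partners AFG3L2 and CLPX themselves had -0.02 and -0.09.

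Of 16 genes of the import machinery 15 were tested in the TRiC line, of which none was higher and 6 were lower, with a median of -0.25. Those with the lowest adjusted p included TOMM7 (-0.60 ± 0.11) and TOMM22 (-0.41 ± 0.09) of the outer membrane translocase. Also among these were TIMM10 (-0.47 ± 0.09), a protein of the intermembrane space, and TIMM17B (-0.39 ± 0.09) of the TIM23 channel. The count was 8 with the replicate block and 5 with library totals or cyclic loess. Of 83 tested genes for nuclear-encoded subunits of oxidative phosphorylation, 2 were higher and 44 lower, with a median of -0.29. The lower ones became 54 with the replicate block and 35 with library totals or cyclic loess. Of 12 chaperones of the endoplasmic reticulum none was higher and 3 were lower, with a median of -0.06. The lower ones became 4 with the replicate block and 1 with library totals. With cyclic loess their median was 0.07, with 1 higher and 1 lower. Over all 17934 genes, 1894 were lower, but 2652 with the replicate block, 1265 with library totals and 1433 with cyclic loess. In each list of this paragraph fewer genes were lower when either TRiC input replicate was left out, as over all genes. More were lower without TRiC pulldown replicate 1, again as over all genes. With all 8 libraries in one fit, none of these lists had a called gene in the TRiC line. In the PFD line the main edgeR fit, the same as for the members above, called none of their genes, and their medians lay between -0.10 and 0.15. At an unadjusted p under 0.05 there were 1 of the chaperones, 2 of the endoplasmic reticulum chaperones and 10 of the 77 oxidative phosphorylation genes, and DESeq2 called 1 endoplasmic reticulum chaperone higher and 2 oxidative phosphorylation genes higher and 5 lower. Without PFD pulldown replicate 2 edgeR called genes of every list in the PFD line, with 1 higher and 2 lower among the chaperones, 1 higher and 2 lower among the proteases, 1 lower in the import machinery, 2 higher and 1 lower among the endoplasmic reticulum chaperones, and 4 higher and 12 lower among the oxidative phosphorylation genes. Without PFD pulldown replicate 1, 2 endoplasmic reticulum chaperones were higher, and 2 oxidative phosphorylation genes were higher and 3 lower. The replicate block called 1 of the chaperones and 3 oxidative phosphorylation genes lower, and 1 to 3 of the latter were lower without PFD input replicate 2, without a filter, at 10 or more counts in every library, with cyclic loess and with all 8 libraries in one fit. The 13 protein genes of the mitochondrial genome, which are translated inside the organelle, were all lower in the TRiC pulldown (median -2.95), and 9 of them were lower in the PFD pulldown (median -2.15).

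Across all genes the TRiC fold change varied with coding length. In length classes chosen after the values were known, the median was -0.23 for 2779 genes of up to 250 codons, -0.08 for 6502 genes of over 250 and up to 600 codons and 0.11 for 5330 genes of over 600 codons, and 74.2%, 59.5% and 35.5% of them lay below 0. The members HSPA9, TRAP1, LONP1, CLPX, CLPB, AFG3L2 and YME1L1 have between 633 and 959 codons and all lay below 0, in the class in which 35.5% did. This holds for TMM scaling. AFG3L2 had 0.026 with library totals and 0.070 with cyclic loess, and YME1L1 had 0.037 with cyclic loess. The corresponding medians in the PFD pulldown were -0.05, -0.01 and 0.02. The lists of other mitochondrial genes were not split by coding length, so its part in their values was not tested.

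**Figure D4:**
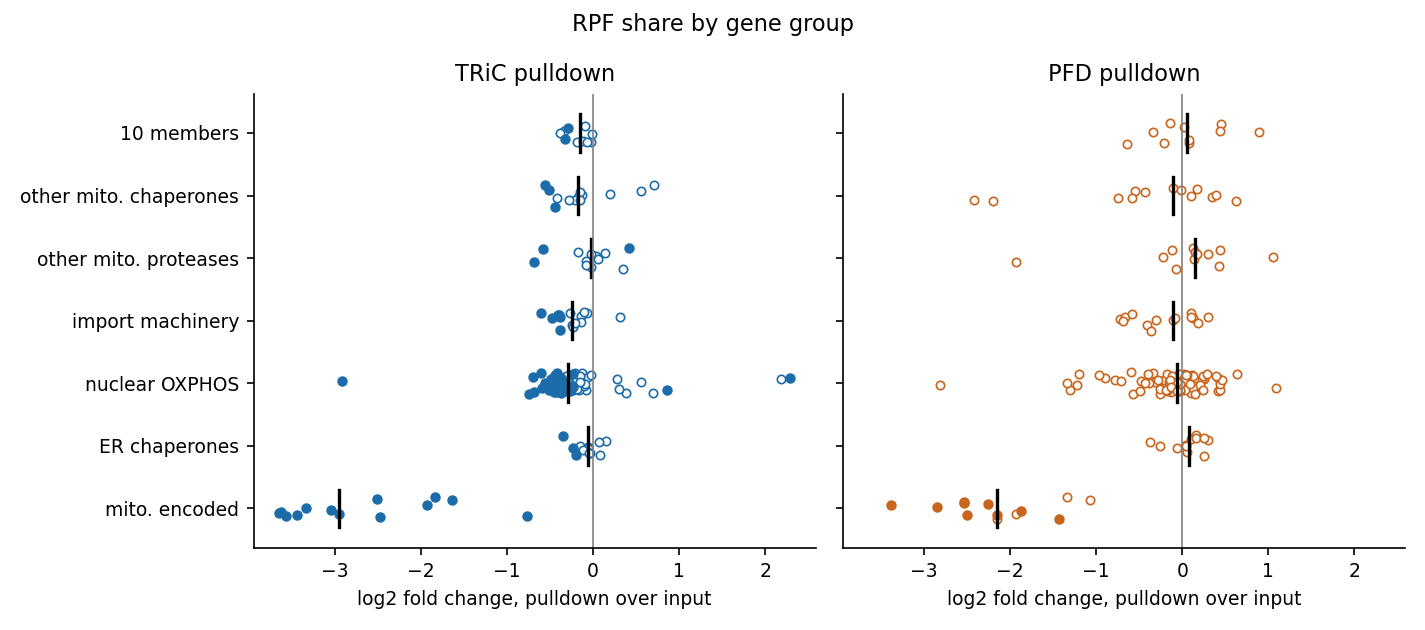
Each point is a tested gene's log2 fold change of pulldown over input in the TRiC (left) and PFD (right) line, by gene group, with filled points at an edgeR adjusted p under 0.05 and a black bar at the group's median. The medians of the nuclear-encoded groups lie between -0.29 and 0.15, whereas that of the 13 mitochondrially encoded genes is -2.95 (TRiC) and -2.15 (PFD).

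Across the 8 libraries the genes with the pattern most like the mean of the members were ADAR, CAPRIN1 and GARS1. Their root mean square differences from the mean centred log2 CPM profile were 0.0382, 0.0419 and 0.0448, against a median of 0.419 over the 11257 genes whose mean count reached 100. The members themselves stood further from their own mean, from 0.107 for HSPA9 to 0.733 for HSPE1, so the mean profile describes few of them well. Partner genes did not keep a fixed ratio. Per kb, HSPD1 exceeded HSPE1 2.98- to 4.24-fold in the TRiC libraries and 4.52- to 26.0-fold in the PFD libraries, the highest value being that of PFD pulldown replicate 1. Only 29.1% of the HSPD1 windows were free of a match elsewhere. For HSPE1, 0.719% were free of a match and of HSPE1-MOB4. The size of this ratio therefore does not give the ratio of their translation. HSPA9 exceeded GRPEL1 6.02- to 6.98-fold in the TRiC libraries and 1.96- to 3.01-fold in the PFD libraries, without overlap between the lines. For single genes, inputs without overlap between the lines were common, with 27.1% of all genes higher in the PFD and 44.8% in the TRiC line. Ratios of other gene pairs were not computed, and line, clone and count table cannot be told apart.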

How the data were processed

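RPFs of 8 libraries were analysed, 2 biological replicates in each of 4 groups taken from the sample labels. The deposited values are whole-number counts per gene, without normalization, in a table per line. The authors made them by trimming and demultiplexing with an awk script, removal of PCR duplicates with UMI-tools, depletion of non-coding RNA reads with Bowtie2 2.4.2, and mapping to hg38 with STAR 2.7.10a (unique alignments, at most 2 mismatches, gene counting). The annotation release and the strand column are not given in the sources used here. Their own test works on codon positions, which gene counts do not hold.

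Names, positions and coding sequences came from GENCODE 44 on hg38, in which 60463 of 60664 identifiers were found. Matches of 29-base coding windows were searched on both strands of hg38. Counts were compared with edgeR 4.0.16 in R 4.3.3 (TMM, filterByExpr, quasi-likelihood test, Benjamini-Hochberg adjustment over all genes tested) within each line, and over all 8 libraries for the difference. The SE of a log2 fold change was taken as its size divided by the square root of F. Alternatives were DESeq2 1.42.0, a replicate block, scaling by library totals or by cyclic loess (limma 3.58.1), other filters, all 8 libraries in 1 fit, leaving out each library and, added after the data were seen, levels per kb of match-free coding sequence. The fits were also run on counts simulated from edgeR's own dispersions. The planted changes were larger than those of the members in either line, so these runs do not measure the power for the members. All 10 members were named with values, and of each further list at most the 4 called genes with the lowest adjusted p. Of the cell type markers 1 is not reported here. Likeness was the root mean square difference of centred log2 CPM. The members, lists and tests were chosen with earlier results of these data known. Replicates differed by more than sampling noise, and intervals cover counting error only.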

Additional observations from a re-analysis of the deposited data

How the results depend on the processing

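The settings moved the counts of called members as follows. In the TRiC pulldown 2 members were lower, but 4 with the replicate block, 0 with library totals, 0 with cyclic loess, 0 with all 8 libraries in 1 fit, and 0 to 5 when a library was left out. The 3444 genes called in all became 31 with all 8 libraries in 1 fit and 1698 to 4698 when a library was left out. With the replicate block 4689 genes were called in all, with library totals 3066 and with cyclic loess 3063. Of all 17934 genes, 1894 were lower in the main fit, 2652 with the block, 1265 with library totals and 1433 with cyclic loess. More lower members under the block thus came with more lower genes over the whole table. The median of the members became -0.045 with cyclic loess and ranged from -0.23 to -0.14 when a library was left out. In the PFD pulldown 1 member was higher (LONP1) and 1 lower (TRAP1) with the replicate block, with DESeq2 and without a filter on low counts. There were 0 to 3 higher and 0 to 2 lower when a library was left out, the most without PFD pulldown replicate 2. The 34 genes called there became 134 with the block, 551 with DESeq2, 57 with cyclic loess, 152 without a filter, 83 with all 8 libraries and 71 to 2434 without a library. For the difference, 2 members were lower with DESeq2, 1 without a filter, and 0 to 3 were higher and 0 to 3 lower without a library. The 7 genes called became 0 with the block, 1011 with DESeq2, 4 with cyclic loess, 511 without a filter, 14 at 10 or more counts in every library and 0 to 3931 without a library. Its median was -0.087 with the block, 0.00012 with cyclic loess and -0.26 to 0.020 without a library. With library totals, summed CPM was 1517 (TRiC pulldowns) and 1883 (PFD pulldowns). The cause of these shifts was not tested.

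The paper describes total RNA and the pulldown as taken from the ribosome pellets, so libraries with the same replicate number can be pairs. Deviations of same-numbered libraries correlated at 0.0587 in the TRiC and -0.00887 in the PFD line. With so few replicates these correlations cannot decide whether the libraries are paired. The main test did not use a pairing, whereas the replicate block did. Under the block the adjusted p in the TRiC line was 0.00609 for HSPA9 and 0.0284 for GRPEL1, and in the PFD line 0.0346 for TRAP1 and 0.0459 for LONP1.

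Values near 0 changed sign. HSPD1 in the TRiC line was 0.032 with library totals, 0.11 with cyclic loess and 0.0070 at 10 or more counts, and in the PFD line -0.017 with library totals and -0.011 with cyclic loess. Its difference was 0.050 and 0.10 under these scalings. AFG3L2 in the TRiC line was 0.026 and 0.070, and YME1L1 0.037 with cyclic loess. The HSPE1 difference was 0.19 with the block and 0.18 with cyclic loess. With a library left out, HSPD1 ranged from -0.056 to 0.022 in the TRiC line, -0.027 to 0.053 in the PFD line and -0.053 to 0.022 in the difference, CLPX from -0.060 to 0.21 in the PFD line and -0.33 to 0.041 in the difference, and YME1L1 from -0.032 to 0.37 in the difference. HSPE1 ranged from -1.84 to 0.60 in the PFD line and -1.01 to 1.52 in the difference, and CLPB from -0.27 to 0.94 in the PFD line, between the fits without PFD pulldown replicate 1 and 2. Of 360 single-gene results under alternatives, 298 kept direction and side of the threshold. HSPE1 had the fewest counts of the members, 31 in PFD pulldown replicate 1.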

Other observations

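Among the named HSPD1 pseudogenes, HSPD1P11 moved away from its parent gene in the TRiC line. It had 51 and 42 counts in the TRiC inputs and 155 and 118 counts in the TRiC pulldowns, a log2 fold change of 1.53 (edgeR adjusted p = 0.00407), whereas HSPD1 itself had -0.01. The PFD inputs held 77 and 36 counts of HSPD1P11, against 2 and 56 for the PFD pulldowns (log2 -1.74, edgeR adjusted p = 0.929). The gene was picked after its values were seen. Reads that fit several copies equally well are missing from all of them, as only unique alignments were kept. The part of HSPD1P11 in the HSPD1 values, which are between 4536 and 13162 counts per library, was not tested.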
